A study of Mus musculus with 12 samples.

Results

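NRF2, the transcription factor encoded by Nfe2l2, 8 of its classical target genes and Hmox1, the inducible heme oxygenase and a target as well, were followed in mouse brain after stroke. The 10 genes (Nfe2l2, Hmox1, Nqo1, Slc7a11, Gclc, Gclm, Gsr, Txnrd1, Srxn1 and Osgin1) were taken by name from a list of known NRF2 targets, and all 10 were found among the 39756 genes of the deposited count table and among the 17558 genes with enough counts to test. The choice of these genes was made with earlier results of the same data known. RNA was sequenced from 12 male C57BL/6J mice, which the labels place in 1 batch and give as separate animals, 4 in each of 3 groups. A filament was pushed up to close the middle cerebral artery for a time and was then drawn back (tMCAO) in the Vehicle and LJP groups, and the Sham group had the operation without it. LJP mice were given Laminaria japonica polysaccharide, a carbohydrate extract of a brown alga, by gavage before and after surgery, while Vehicle and Sham mice had saline. The labels give neither the dose nor the time after surgery of the sequenced mice, and the study chose the middle of its 3 doses for the experiments that followed its dose comparison. Each library is poly(A) RNA of 1 hemisphere, called ischemic in the labels of all 3 groups, so infarct and surviving tissue are mixed in unknown shares and a smaller number of cells of a type cannot be told apart from less RNA per cell.

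In resting cells KEAP1 hands NRF2 over for degradation. Electrophiles and oxidants disable KEAP1, after which NRF2 accumulates, pairs with a small MAF protein and binds antioxidant response elements (AREs) near genes for glutathione synthesis, thioredoxin reduction, quinone detoxification and heme breakdown. BACH1 occupies the same elements as a repressor until heme removes it, which makes Hmox1 responsive to heme as well as to oxidants. In brain these genes are studied most in astrocytes, microglia and infiltrating phagocytes, and heme oxygenase is best known in tissue exposed to blood.

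The libraries held between 17960353 and 22216315 counts. Levels are given as CPM, counts scaled to a common library size with TMM factors, and a count of 0 allows a level of up to 0.129 to 0.173 CPM (3 counts, counting error only). Fold changes and their standard errors (SE) come from edgeR's quasi-likelihood fit of all 12 mice, and a gene was called at an adjusted p below 0.05. All 3 comparisons draw on the same groups of mice, so they are not independent of each other. Vehicle mice 1 and 2 stood apart from the rest. The summed level of 6 neutrophil markers was 159 and 39.8 CPM in these mice and at most 4.63 CPM elsewhere, and that of 6 erythroid markers was 89.3 and 51.2 CPM against at most 14.4 CPM. All 8 neuron markers were expressed in every mouse, with a summed level of 4000 CPM in Vehicle mouse 2 and between 5469 and 7401 CPM in the others. A set of 6 airway and lung epithelium markers also summed to between 9.03 and 13.6 CPM in all 8 Sham and Vehicle mice. In LJP mice the same set summed to at most 0.669 CPM. This difference runs with the LJP group, so the design cannot tell it apart from the treatment, and its part in the results was not tested.

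The comparison of Vehicle with Sham mice asks how the NRF2 genes stand after ischemia and reperfusion. Of the 10 genes, 9 rose and 1, Gclc, did not pass the test. Of all genes tested, 39.9% were called and 22.7% were called higher in Vehicle mice. The higher genes made up 56.8% of the calls, and 67.3% with scaling by library size only, under which the same number of the 10 genes was called. Hmox1 led with a 44.1-fold difference between the group means, followed by Osgin1 with 8.84-fold and Slc7a11 with 3.36-fold. The median log2 fold change of the 10 genes was 1.23, beside 0.00 for all genes tested. For each of the 9 genes every Vehicle mouse lay above every Sham mouse, which held for 20.7% of all genes. DESeq2 called 9 of the 10 as well, beside 20% of all genes it tested. The thresholds of the study's methods (absolute log2 fold change over 0.58 at an unadjusted p below 0.01) were applied here to edgeR values, while the study used DESeq2. They were passed by 9 of the 10 as higher, beside 15.3% of all genes. The edgeR count was 9 without Vehicle mouse 1, without Vehicle mouse 2 and without any other single mouse.

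**Figure D1:**
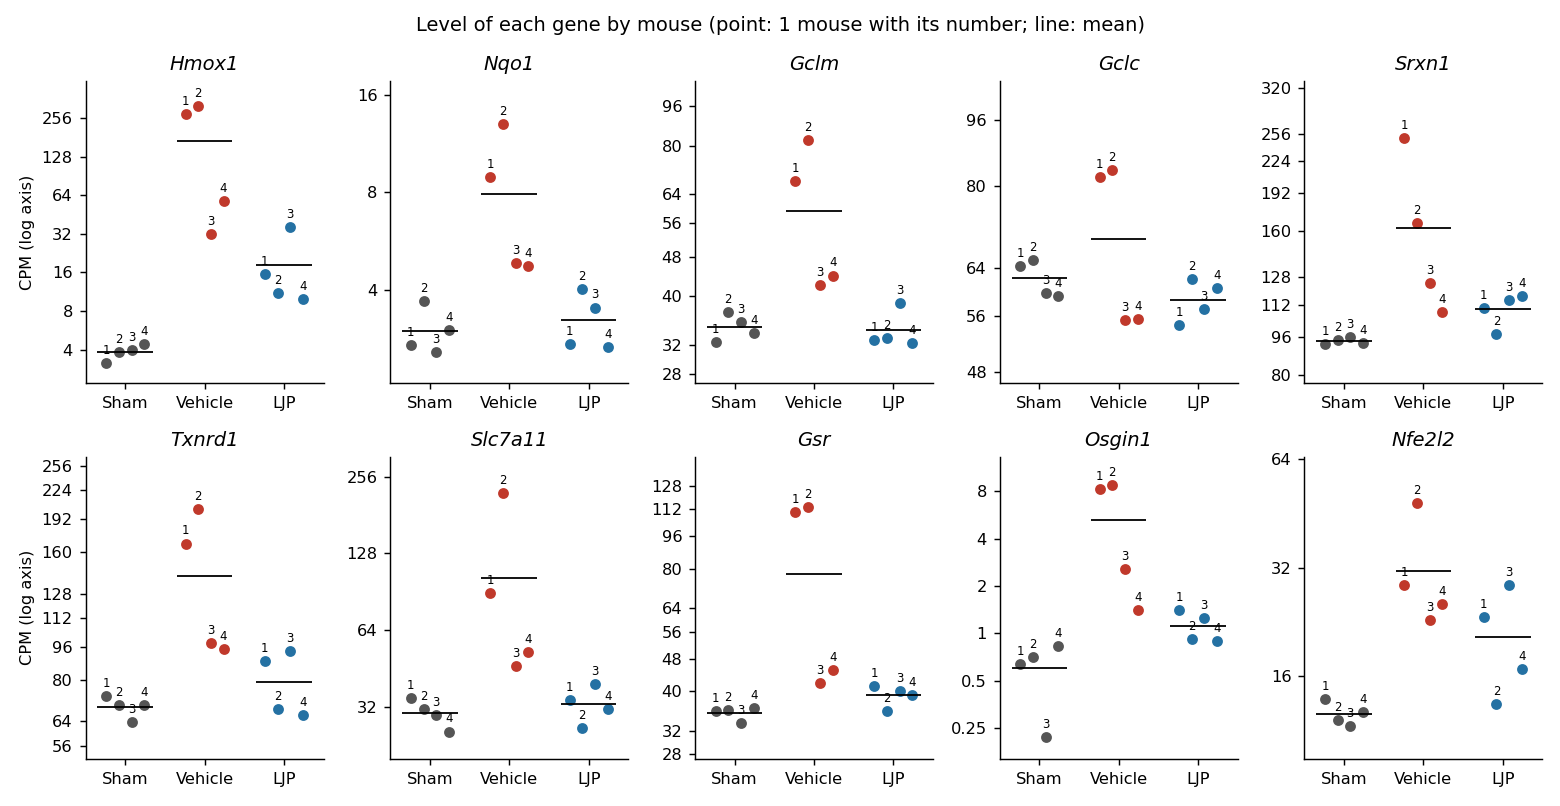
Level of each of the 10 genes (CPM, log axis) in Sham, Vehicle and LJP mice, with 1 point and number per mouse and a line at the group mean (n = 4 mice). Vehicle mice 1 and 2 are the highest 2 of the 12 mice in every panel, level with LJP mouse 3 in the case of Nfe2l2, and the LJP mice lie near the Sham mice in most panels.

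Nfe2l2 (Entrez Gene 18024, chromosome 2 from 75675513 to 75704663 of GRCm38, minus strand) encodes NRF2 itself. Its level was 13.8, 12.1, 11.7 and 12.7 CPM in Sham mice 1 to 4. It was 28.7, 48.3, 22.9 and 25.3 CPM in Vehicle mice 1 to 4. In LJP mice 1 to 4 it was 23.3, 13.4, 28.7 and 16.8 CPM. All Vehicle mice were above all Sham mice, and LJP mice 1 and 3 lay within the Vehicle range while LJP mouse 2 lay within the Sham range. The log2 fold change was 1.32 between Vehicle and Sham (SE 0.26, edgeR adjusted p = 0.00232), -0.61 between LJP and Vehicle (SE 0.25, edgeR adjusted p = 0.136) and 0.71 between LJP and Sham (SE 0.26, edgeR adjusted p = 0.151). Without Vehicle mouse 2 the difference between LJP and Vehicle was -0.32.

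Hmox1 (Entrez Gene 15368, chromosome 8 from 75093618 to 75100593, plus strand) opens the heme ring, releasing iron, carbon monoxide and biliverdin. It was at 3.17, 3.87, 3.95 and 4.41 CPM in Sham mice 1 to 4. It reached 273, 315, 32.1 and 58.0 CPM in Vehicle mice 1 to 4. LJP mice 1 to 4 had 15.7, 11.1, 36.0 and 9.92 CPM. Every mouse with tMCAO was above every Sham mouse, and Vehicle mice 1 and 2 held several times the level of Vehicle mice 3 and 4. LJP mouse 3, at 36.0 CPM, lay above Vehicle mouse 3, at 32.1 CPM, so that Vehicle and LJP mice overlapped. The group means were 3.85 ± 0.509 CPM in Sham, 169.6 ± 145 CPM in Vehicle and 18.2 ± 12.1 CPM in LJP mice (SD, n = 4 each). Hmox1 rose in Vehicle mice by a log2 fold change of 5.46 (SE 0.76, edgeR adjusted p = 0.000376). Between LJP and Vehicle the difference was -3.23 (SE 0.66, edgeR adjusted p = 0.0678), and between LJP and Sham 2.23 (SE 0.70, 95% confidence interval 0.71 to 3.76, edgeR adjusted p = 0.0983), neither of which passed the threshold. Without LJP mouse 3 the difference between LJP and Sham was 1.67.

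Hmox2, the constitutive heme oxygenase, served as a comparison within each mouse, chosen after its values were seen. It lay between 59.0 and 67.9 CPM in all 12 mice, and its log2 fold change between Vehicle and Sham was 0.09 (SE 0.06, edgeR adjusted p = 0.26). Per kilobase of gene length, the ratio of the Hmox1 level to the Hmox2 level was 0.0862 ± 0.0127 in Sham mice (SD, n = 4). It was 5.50, 6.33, 0.673 and 1.33 in Vehicle mice 1 to 4. In LJP mice 1 to 4 it was 0.332, 0.258, 0.774 and 0.216. Hmox1 thus exceeded Hmox2 per length in Vehicle mice 1, 2 and 4 and in no other mouse.

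Nqo1 (Entrez Gene 18104, chromosome 8 from 107388225 to 107403205, minus strand) encodes the quinone reductase that is the textbook readout of NRF2 activity. Its levels were low, at 2.71, 3.71, 2.58 and 3.01 CPM in Sham mice 1 to 4. They were 8.94, 13.02, 4.84 and 4.74 CPM in Vehicle mice 1 to 4. LJP mice 1 to 4 had 2.73, 4.04, 3.54 and 2.68 CPM. The Vehicle mice lay above both other groups without overlap, and Sham and LJP mice covered nearly the same range. Nqo1 rose in Vehicle mice by 1.40 on the log2 scale (SE 0.31, edgeR adjusted p = 0.00447), and the value between LJP and Vehicle was -1.29 (SE 0.31, edgeR adjusted p = 0.0678). Between LJP and Sham mice the fold change was 0.11.

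Slc7a11 (Entrez Gene 26570, chromosome 3 from 50364936 to 50499087, minus strand) encodes the transport subunit of the cystine-glutamate antiporter, which brings in the cystine that limits glutathione synthesis. Sham mice 1 to 4 had 34.7, 31.3, 29.8 and 25.7 CPM. The level was 89.3, 220.1, 46.4 and 52.6 CPM in Vehicle mice 1 to 4. LJP mice 1 to 4 had 34.1, 26.6, 39.4 and 31.4 CPM. Vehicle mice did not overlap with either group, and Vehicle mouse 2 stood far above all the others. The rise in Vehicle mice was 1.75 on the log2 scale (SE 0.40, edgeR adjusted p = 0.005) and 1.04 without Vehicle mouse 2. The log2 fold change between LJP and Vehicle was -1.64 (SE 0.40, edgeR adjusted p = 0.0678), or -0.94 without Vehicle mouse 2. Between LJP and Sham it was 0.11, and between 0.015 and 0.20 with 1 mouse left out.

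Gclc and Gclm encode the catalytic and the modifier subunit of glutamate-cysteine ligase, the enzyme of the first and limiting step of glutathione synthesis. Gclm (Entrez Gene 14630, chromosome 3 from 122245487 to 122267215, plus strand) was at 32.4, 37.2, 35.6 and 33.8 CPM in Sham mice 1 to 4. It was at 68.0, 82.2, 42.1 and 44.0 CPM in Vehicle mice 1 to 4. In LJP mice 1 to 4 it was at 32.8, 33.0, 38.8 and 32.3 CPM. Vehicle mice were again above both groups without overlap. Gclm rose by a log2 fold change of 0.77 (SE 0.18, edgeR adjusted p = 0.00617), and the value between LJP and Vehicle was -0.79 (SE 0.18, edgeR adjusted p = 0.0678).

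Gclc (Entrez Gene 14629, chromosome 9 from 77754535 to 77794489, plus strand) was the exception. Sham mice 1 to 4 had 64.2, 65.3, 59.7 and 59.2 CPM. Vehicle mice 1 to 4 had 82.0, 83.6, 55.4 and 55.6 CPM, and LJP mice 1 to 4 had 54.7, 62.0, 57.1 and 60.5 CPM. Vehicle mice 1 and 2 were above all Sham mice and Vehicle mice 3 and 4 below all of them, so the Vehicle group spanned the Sham group. The log2 fold change between Vehicle and Sham was 0.16 (SE 0.13, 95% confidence interval -0.13 to 0.44, edgeR adjusted p = 0.359), and between LJP and Vehicle -0.24 (SE 0.13, edgeR adjusted p = 0.229). Without 1 of the Vehicle mice these values lay between 0.046 and 0.25 and between -0.33 and -0.14, lowest in size without Vehicle mouse 2. Within each mouse, the ratio of Gclm to Gclc per kilobase was 0.836 to 0.990 in Sham mice, 1.26 to 1.63 in Vehicle mice and 0.884 to 1.13 in LJP mice. All Vehicle mice, including mice 3 and 4, therefore had more of the modifier relative to the catalytic subunit transcript than any other mouse, a comparison that was chosen after the values were seen and was not tested.

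Gsr (Entrez Gene 14782, chromosome 8 from 33653238 to 33698162, plus strand) encodes glutathione reductase, which returns oxidized glutathione to its reduced form. It was at 35.7, 36.0, 33.3 and 36.3 CPM in Sham mice 1 to 4. Vehicle mice 1 to 4 had 110.1, 113, 41.9 and 45.1 CPM, and LJP mice 1 to 4 had 41.1, 35.7, 40.1 and 39.2 CPM. The Vehicle group was split, with mice 1 and 2 far above and mice 3 and 4 just above the highest LJP mouse. Gsr rose in Vehicle mice by 1.14 on the log2 scale (SE 0.28, edgeR adjusted p = 0.00734), and the value between LJP and Vehicle was -0.99 (SE 0.28, edgeR adjusted p = 0.0692).

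Txnrd1 (Entrez Gene 50493, chromosome 10 from 82833951 to 82897724, plus strand) encodes the cytosolic thioredoxin reductase. Sham mice 1 to 4 had 73.5, 70.02, 63.7 and 69.96 CPM. Vehicle mice 1 to 4 had 168, 203, 98.1 and 94.7 CPM, and LJP mice 1 to 4 had 88.7, 68.5, 93.6 and 66.4 CPM. LJP mice fell into a pair near the Vehicle range, mice 1 and 3, and a pair within the Sham range, mice 2 and 4, and the gap between LJP mouse 3 and Vehicle mouse 4 was narrow. Txnrd1 rose in Vehicle mice by 1.02 on the log2 scale (SE 0.22, edgeR adjusted p = 0.0037), and the value between LJP and Vehicle was -0.83 (SE 0.22, edgeR adjusted p = 0.0678).

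Srxn1 (Entrez Gene 76650, chromosome 2 from 152105524 to 152111376, plus strand) encodes sulfiredoxin, which repairs overoxidized peroxiredoxins. It varied least among Sham mice, at 92.8, 94.5, 95.8 and 93.0 CPM in mice 1 to 4. Vehicle mice 1 to 4 had 251, 166, 124 and 108 CPM, and LJP mice 1 to 4 had 110.5, 97.2, 115 and 117 CPM. All LJP mice lay above all Sham mice by a small margin, and 3 of them lay above Vehicle mouse 4. Srxn1 rose in Vehicle mice by 0.79 on the log2 scale (SE 0.20, edgeR adjusted p = 0.00881), and between LJP and Vehicle the value was -0.57 (SE 0.20, edgeR adjusted p = 0.0991). These became 0.50 and -0.28 without Vehicle mouse 1, the mouse with the highest level.

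Osgin1 (Entrez Gene 71839, chromosome 8 from 119425882 to 119446257, plus strand), an oxidative stress induced growth inhibitor, was the least abundant of the 10 genes. Sham mice 1 to 4 had 0.634, 0.708, 0.219 and 0.829 CPM. Vehicle mice 1 to 4 had 8.30, 8.85, 2.58 and 1.40 CPM, and LJP mice 1 to 4 had 1.41, 0.920, 1.25 and 0.892 CPM. All mice with tMCAO were above all Sham mice, and LJP mouse 1 overlapped with Vehicle mouse 4. Osgin1 rose in Vehicle mice by 3.13 on the log2 scale (SE 0.57, edgeR adjusted p = 0.00166), while the value was -2.24 between LJP and Vehicle (SE 0.53, edgeR adjusted p = 0.0678) and 0.90 between LJP and Sham (edgeR adjusted p = 0.463). The unnamed gene Gm32006 overlaps Osgin1 on the other strand with at most 15 counts in a mouse. The library kit does not mark strand, so reads of the overlap cannot be assigned to either gene.

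The 10 genes differed in how far they spread within groups, and most of the spread came from the same animals. Among Sham mice the coefficient of variation ran from 1.51% (Srxn1) to 44.3% (Osgin1, the gene with the fewest counts). Among Vehicle mice it ran from 22.8% (Gclc) to 85.6% (Hmox1). Vehicle mice 1 and 2 held the highest 2 of the 12 levels for all 10 genes, with mouse 2 first in 9 of them and mouse 1 first in Srxn1. The median change from the Sham mean over the 10 genes, on the log2 scale, was 1.49 and 1.81 in Vehicle mice 1 and 2 and 0.56 and 0.55 in Vehicle mice 3 and 4. In LJP mice 1 to 4 it was 0.23, 0.03, 0.33 and 0.10. Of the LJP mice, mouse 3 had the highest level in 5 genes and was among the highest 2 in 9.

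**Figure D2:**
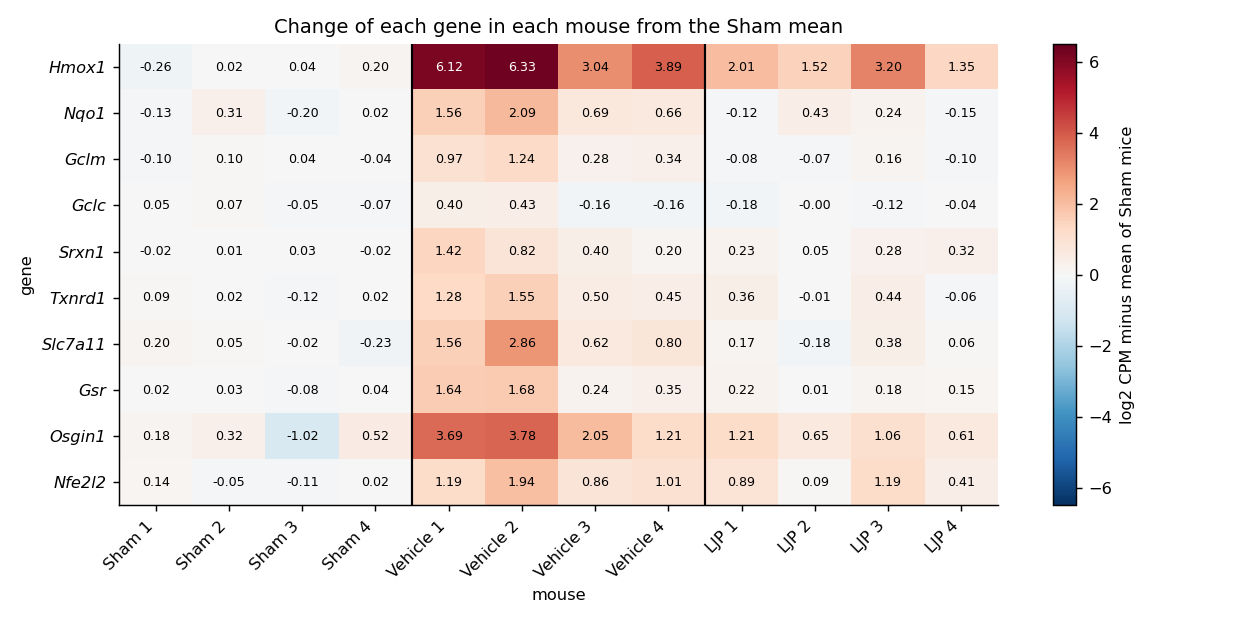
Change of each gene (rows) in each of the 12 mice (columns) from the Sham mean, as log2 CPM, with the value printed in each cell and red for higher. The 2 darkest columns are Vehicle mice 1 and 2, and Hmox1 and Osgin1 are the rows that stay above 0 in every mouse with tMCAO by at least 0.61.

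Compared per kilobase, the order of the levels shifted mainly through Hmox1. In Sham mice Srxn1 was highest at 33.4 ± 0.506 CPM per kilobase (SD, n = 4), followed by Txnrd1 (17.2 CPM per kilobase), Gclc (16.7), Gclm (15.5) and Gsr (13.2). Nfe2l2 (3.30 CPM per kilobase), Slc7a11 (3.17), Hmox1 (2.44) and Nqo1 (1.93) came next, and Osgin1 was lowest at 0.228. The ranges over Sham mice overlapped between neighbours from Txnrd1 to Gclm and from Nfe2l2 to Nqo1, and did not overlap between the other neighbours. In Vehicle mice Hmox1 ranked first at 108 ± 92.2 CPM per kilobase (SD, n = 4), although its range, from 20.4 to 200.1, overlapped with those of Srxn1, Txnrd1, Gsr, Gclm, Gclc and Slc7a11. In LJP mice Srxn1 was again first at 39.1 ± 3.14 and Hmox1 ranked 6 at 11.5 ± 7.68 CPM per kilobase (SD, n = 4).

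The comparison of LJP with Vehicle mice asks how the 10 genes differed between these groups after the same surgery. None of the 10 genes was called by edgeR, where 0.0228% of all genes were called (4 of 17558), all of them lower in LJP mice. Of these 4 genes, 3 were airway and lung markers (Scgb1a1, Sftpa1 and Sftpb) and the other was Csf3, a granulocyte growth factor. All 10 fold changes were below 0, with a median of -0.91 on the log2 scale beside 0.00 for all genes, and ranged from -3.23 (Hmox1) to -0.24 (Gclc). At an unadjusted p below 0.05, 9 of the 10 passed (all but Gclc), as did 29.7% of all genes. The smallest adjusted p among the 10 was 0.0678. Nqo1, Gclm, Txnrd1, Slc7a11 and Gsr were lower in every LJP mouse than in every Vehicle mouse, which held for 5.91% of all genes. In Hmox1, Osgin1, Srxn1, Nfe2l2 and Gclc the groups overlapped.

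The call depended on the tool and on single mice. DESeq2 called 7 of the 10 genes lower in LJP mice, beside 9.48% of all genes it tested (adjusted p of Hmox1 at 0.000878, Slc7a11 at 0.00176, Osgin1 at 0.00252, Gclm at 0.00396, Nqo1 at 0.00401, Txnrd1 at 0.00836 and Gsr at 0.0102), and not Srxn1 (0.0539), Nfe2l2 (0.0931) or Gclc (0.246). At the study's thresholds, with edgeR values, 7 passed as lower, beside 5.89% of all genes. With edgeR, 8 genes (all but Gclc and Nfe2l2) were called lower without Vehicle mouse 3, beside 13.1% of all genes, and 8 without Vehicle mouse 4, beside 8.38%. None was called without any other single mouse.

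**Figure D3:**
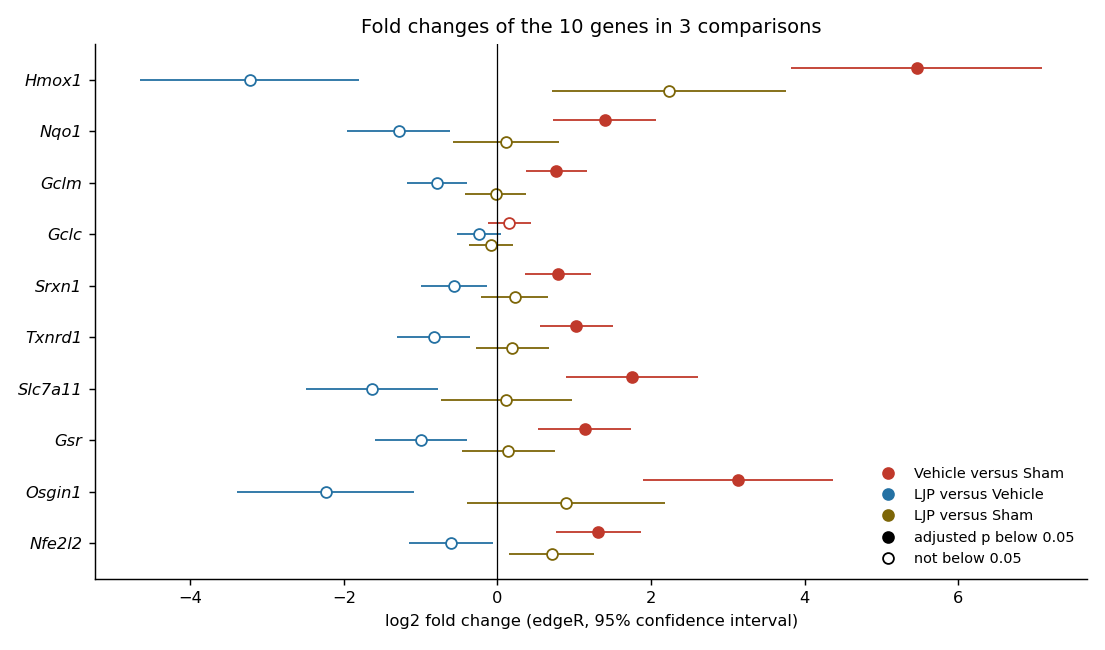
Log2 fold change of the 10 genes in 3 comparisons (edgeR, n = 4 mice per group), with bars for the 95% confidence interval and filled points for an adjusted p below 0.05. The 9 filled points all belong to Vehicle versus Sham, and the points of LJP versus Vehicle all lie below 0.

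The comparison of LJP with Sham mice asks how far the genes were from their level without ischemia. None of the 10 genes was called by edgeR, beside 4.75% of all genes, and the median log2 fold change was 0.17. Only Hmox1 (2.23) and Nfe2l2 (0.71, 95% confidence interval 0.15 to 1.26) had an unadjusted p below 0.05, as had 18.8% of all genes. DESeq2 called Hmox1 higher (adjusted p = 0.0222), beside 5.67% of all genes it tested. With edgeR values 1 of the 10, Hmox1, passed the study's thresholds, beside 5.10% of all genes. With DESeq2 values both Hmox1 (2.24, DESeq2 unadjusted p = 0.00128) and Nfe2l2 (0.70, DESeq2 unadjusted p = 0.00745) passed them. The share of all genes at these thresholds was taken with edgeR only. Hmox1, Srxn1 and Osgin1 were higher in every LJP mouse than in every Sham mouse, which held for 12.9% of all genes. Fold changes of Nqo1, Gclm, Gclc, Txnrd1, Slc7a11 and Gsr lay between -0.08 and 0.20. In a fit of only Sham and LJP mice, 3 of the 10 were called higher, beside 12.1% of all genes: Hmox1 (edgeR adjusted p = 0.000628), Nfe2l2 (0.0153) and Srxn1 (0.0194).

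The promoters were searched for the ARE, as the core letters TGACNNNGC or the variant TGAGNNNGC on either strand. RefSeq promoters of GRCm38.p6, from 250 bases before to 50 bases after a start, were at hand for 7 of the 10 genes. The core was found in 4 of the 7, beside 16.2% of the 13710 tested genes that have a window. The variant, added after the first search, was found in 3 of the 7, beside 22.6%. Either form was found in 6 of the 7, all but Nqo1, beside 34.8%. The genes were chosen as known NRF2 targets, so shares above those of all genes may follow from the choice and were not tested. The 8 matches are shown on the strand of the gene with 10 bases on either side, and capitals mark the match, which reads GCNNNGTCA or GCNNNCTCA where it lies on the other strand:
Gclm, chr3:122245413-122245441, plus strand: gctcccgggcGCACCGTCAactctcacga
Txnrd1, chr10:82859104-82859132, plus strand: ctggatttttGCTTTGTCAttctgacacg
Nfe2l2, chr2:75704885-75704913, minus strand: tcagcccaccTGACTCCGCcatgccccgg
Slc7a11, chr3:50443692-50443720, minus strand: taatgttggcGCTTTCTCAagctggagtt
Osgin1, chr8:119437038-119437066, plus strand: aggggcccctGCTGACTCAcgcttatgaa
Srxn1, first, chr2:152105356-152105384, plus strand: tctactgagaGCCGACTCAtcctctctgg
Srxn1, second, chr2:152105469-152105497, plus strand: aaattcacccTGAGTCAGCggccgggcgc
Srxn1, last, chr2:152105542-152105570, plus strand: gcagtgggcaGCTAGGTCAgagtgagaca

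Srxn1 was the only gene with 3 matches, at 158 to 150 and 45 to 37 bases before the start and at 29 to 37 after it. The matches of Gclm, Txnrd1, Slc7a11 and Osgin1 began between 134 and 92 bases before their starts, and that of Nfe2l2 began 240 bases before. The windows with the Slc7a11, Osgin1 and Txnrd1 matches belong to starts inside these genes, and for Txnrd1 it is 1 of 3 windows. In the Osgin1 match and in the second Srxn1 match the ARE letters overlap the AP-1 core TGANTCA, which 2 of the 7 genes held and 6.51% of tested genes with a window. A match of these letters is a description of the sequence and not of binding.

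Other genes of the pathway were taken from 5 lists, some of which share genes, and 98 list genes were tested. In the list of NRF2 regulators and partners, 7 of 16 rose and 2 fell in Vehicle mice (median log2 fold change 0.12), beside 22.7% higher and 17.3% lower among all genes tested. Maff and Mafk, small MAF partners of NRF2 and BACH1, rose by 3.16 and 1.70 (SE 0.45 and 0.29, edgeR adjusted p = 0.000443 and 0.00127). Maff was between 1.90 and 3.43 CPM in Sham mice, at 33.3, 37.6, 11.0 and 9.75 CPM in Vehicle mice 1 to 4, and between 4.86 and 10.1 CPM in LJP mice. Bach1 rose by 1.16 (edgeR adjusted p = 0.0018), Keap1 had a fold change of 0.22 (edgeR adjusted p = 0.0931), and Gsk3b, a kinase that marks NRF2 for degradation, fell by 0.48. Mafg, another small MAF, was at 134.9 to 144 CPM in Sham and 133 to 141 CPM in Vehicle mice (log2 fold change -0.02, edgeR adjusted p = 0.84). Transcripts of NRF2, of its repressor BACH1 and of the small MAFs Maff and Mafk thus rose, while those of Mafg and Keap1 were not called.

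Of 27 tested genes in the list of other NRF2 targets, 21 rose and none fell, beside 22.7% higher and 17.3% lower among all genes tested. The list's median was 0.61, beside 0.00 for all genes. Akr1b8, an aldo-keto reductase, had 0.272 to 0.493 CPM in Sham mice and 7.49, 16.8, 2.80 and 4.90 CPM in Vehicle mice 1 to 4, a log2 fold change of 4.32 (SE 0.56, edgeR adjusted p = 0.000241). Prdx6, a peroxiredoxin that reduces phospholipid hydroperoxides, had 128 to 142 CPM in Sham mice and 241, 358, 287 and 313 CPM in Vehicle mice 1 to 4, a log2 fold change of 1.14 (SE 0.12, edgeR adjusted p = 0.000107). Gstm1, a glutathione transferase, rose by 0.61 (SE 0.07, edgeR adjusted p = 0.000171). For Prdx6 and Gstm1 Vehicle mouse 1 was the lowest of its group, unlike in the 10 NRF2 genes.

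For the next 3 lists, 22.7% higher and 17.3% lower among all genes tested is again the share to set beside the counts. The heme list counted 12 higher and 0 lower of 19 (median 0.39), where the called genes cover scavenging of hemoglobin and heme, biliverdin reduction and heme synthesis. Hp, the hemoglobin scavenger haptoglobin, rose by 4.37 (SE 0.90, edgeR adjusted p = 0.00304), with 26.4, 15.7, 1.02 and 2.69 CPM in Vehicle mice 1 to 4 and at most 0.877 CPM in Sham and LJP mice. Blvrb, a biliverdin reductase, rose by 1.55 and Alas1, the first enzyme of heme synthesis, by 0.44. The glutathione list counted 13 higher and 2 lower of 22 (median 0.53), among them the extracellular peroxidase Gpx3 (2.42, SE 0.36), Slc3a2, the heavy chain that carries Slc7a11 to the membrane (1.02, SE 0.16), and glutathione synthetase Gss (0.68, SE 0.11). The thioredoxin and peroxiredoxin list counted 11 higher and 1 lower of 20 (median 0.32), with Msrb1, a methionine sulfoxide reductase (1.37, SE 0.24), and extracellular superoxide dismutase Sod3 (1.03, SE 0.20) among the higher. The lower gene was Sod2, the mitochondrial superoxide dismutase (-0.25).

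**Figure D4:**
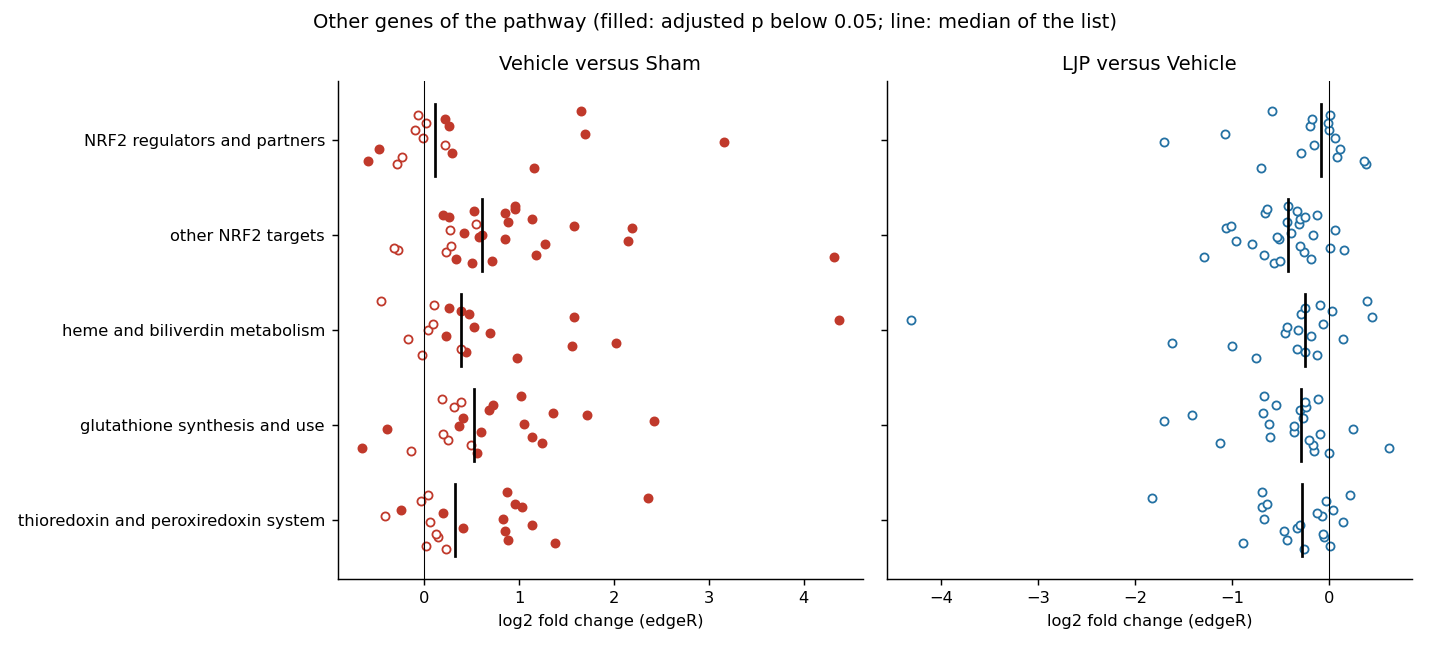
Log2 fold changes (edgeR) of the tested genes of 5 pathway lists in Vehicle versus Sham (left) and LJP versus Vehicle (right), with 1 point per gene, filled for an adjusted p below 0.05, and a black line at the list's median. Filled points lie mainly to the right of 0 on the left, and no point on the right is filled.

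Between LJP and Vehicle mice no list gene was called by edgeR, while 35 of the 98 were called by DESeq2, beside 13.4% of all genes it tested. Medians were -0.08 (regulators), -0.42 (other NRF2 targets), -0.25 (heme), -0.29 (glutathione) and -0.28 (thioredoxin), and 24 of the 27 other NRF2 targets had a fold change below 0. At an unadjusted p below 0.05, 8 of 16, 21 of 27, 11 of 19, 13 of 22 and 11 of 20 genes passed in the 5 lists, in the same order, beside 29.7% of all genes. Between LJP and Sham mice 7 of the 98 list genes were called, 6 higher and 1 lower, beside 4.75% of all genes. Of the other NRF2 targets 4 of 27 were called (14.8%), and of each of the other lists 1 gene (4.55% to 6.25% of its tested genes). Those 4, all higher, were Akr1b8 (3.03, edgeR adjusted p = 0.00774), Ftl1, the ferritin light chain that stores iron (1.19, edgeR adjusted p = 0.036), Prdx6 (0.84, edgeR adjusted p = 0.00208) and Gstm1 (0.44, edgeR adjusted p = 0.0045), and the lower one was Gsk3b (-0.36, edgeR adjusted p = 0.0321). Ftl1 had 221 to 264 CPM in Sham mice and 616, 413, 788 and 406 CPM in LJP mice 1 to 4. All LJP mice were thus above all Sham mice for Ftl1, with mice 1 and 3 the highest of the group.

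The 5 genes whose pattern over the 12 mice was nearest to that of Hmox1, by the mean absolute difference of log2 CPM centred on the Sham mice, were Plaur, the urokinase receptor (0.179), Emp1, a membrane protein (0.299), Tgfbi, a matrix protein (0.333), Slc10a6, a carrier of sulfated steroids (0.342), and Pirb, a receptor of myeloid cells (0.345). Plaur had 10, 17, 14 and 17 raw counts in Sham mice 1 to 4, 1078, 1567, 124 and 208 in Vehicle mice 1 to 4, and 110, 39, 131 and 36 in LJP mice 1 to 4. As in Hmox1, Vehicle mice 1 and 2 were highest and LJP mouse 3 lay above Vehicle mouse 3. The likeness to Hmox1 chose these genes, so their higher levels in Vehicle mice and the order of the mice follow from the choice and were not tested. Slc10a6 had 0 or 1 count in Sham mice and 19 to 235 in Vehicle mice.

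Marker sums of some cell types were highest in Vehicle mice 1 and 2, as were the 10 genes. This held for macrophage, endothelial, erythroid and neutrophil markers and not for microglia, astrocyte and neuron markers. All 8 macrophage markers rose in Vehicle mice, where 22.7% of all genes tested were called higher and 17.3% lower. The summed macrophage level was 234, 457, 90.3 and 164 CPM in Vehicle mice 1 to 4, against 18.6 to 26.8 CPM in Sham and 35.1 to 151 CPM in LJP mice. Of 6 endothelial markers, 5 rose, with summed levels of 271 to 1367 CPM in Vehicle, 188 to 207 CPM in Sham and 178 to 243 CPM in LJP mice. These sums followed the order of the Vehicle mice seen in Hmox1, with mice 1 and 2 above mice 3 and 4. Erythroid markers summed to 9.80 to 89.3 CPM in Vehicle, 3.89 to 5.99 CPM in Sham and 5.42 to 8.92 CPM in LJP mice, and 5 of the 5 tested rose. Neutrophil markers summed to 0.646 to 159 CPM in Vehicle, 0.155 to 0.272 CPM in Sham and 0.256 to 0.816 CPM in LJP mice, and none of the 6 had enough counts in enough mice to be tested. The defining neutrophil markers Retnlg, Cxcr2 and Ly6g were at 0 in all 4 Sham mice. Microglia markers stood differently, with 6 of 8 higher in Vehicle mice but the lowest sum of the group, 419 CPM, in Vehicle mouse 1, and sums of 514 to 863 CPM in LJP mice. Neuron markers fell in Vehicle mice in 3 of 8. Astrocyte markers summed to 3594 CPM in Vehicle mouse 1, the lowest of the 12 mice, and to between 3688 and 5601 CPM in the others. Of these 8 markers, 3 were called higher and 1 lower in Vehicle than in Sham mice (log2 fold changes from -0.76 to 3.87). Between LJP and Sham mice 3 of the 8 were called higher and 0 lower, beside 4.75% of all genes called. Oligodendrocyte markers summed to between 4421 and 6046 CPM, highest in Vehicle mice 1 and 2 (5965 and 6046 CPM), and 1 of 6 was called higher in Vehicle mice. Choroid plexus markers summed to 22.8 and 20.1 CPM in Vehicle mice 1 and 2 and to 533 and 488 CPM in Vehicle mice 3 and 4, and they split the other groups too, at 32.1 CPM in Sham mouse 1 and 441 to 909 CPM in the other Sham mice, and at 389 CPM in LJP mouse 3 and 22.4 to 27.5 CPM in the other LJP mice. The part of these cell types in the levels of the 10 genes was not tested.

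**Figure D5:**
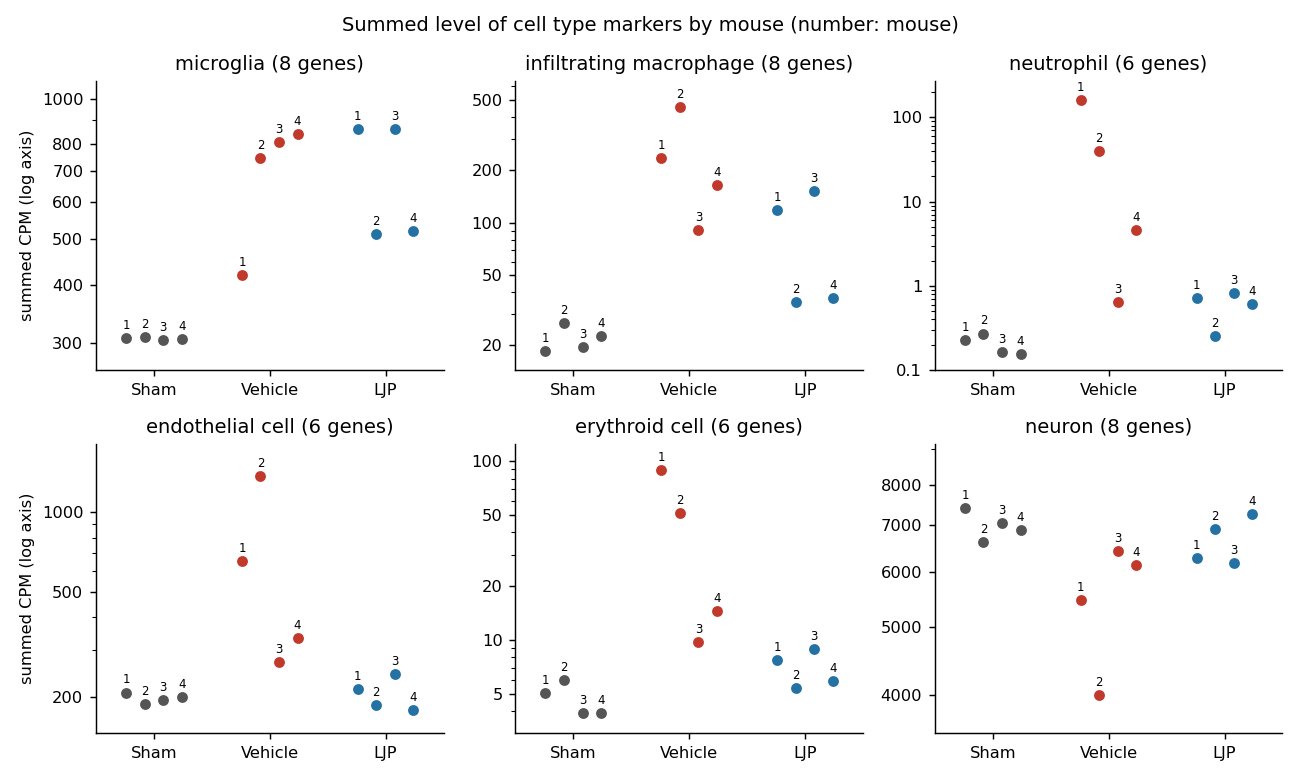
Summed level (CPM, log axis) of the markers of 6 cell types in each mouse, with 1 point and number per mouse. Vehicle mice 1 and 2 are highest for the neutrophil, erythroid, endothelial and macrophage sums, Vehicle mouse 2 is lowest for the neuron sum, and LJP mice 1 and 3 lie above LJP mice 2 and 4 for the macrophage and microglia sums.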

How the data were processed

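Ischemic hemispheres of 12 mice were sequenced after poly(A) selection and NEBNext Ultra library preparation. The authors deposited raw counts per gene and mouse, without normalization. The submitters' notes name featureCounts, DESeq2 and the builds GRCm39 and mm10, while versions and strand setting are not given in the sources used here. Gene positions of the deposited table matched RefSeq GRCm38.p6 for 39730 of 39756 genes.

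The analysis used edgeR 4.0.16 in R 4.3.3 (filterByExpr, TMM, a quasi-likelihood fit with 1 coefficient per group), with Benjamini-Hochberg adjustment over 17558 genes. Log2 CPM used a prior count of 2. DESeq2 1.42.0 was an alternative, as were RLE or library size scaling, no filter, a block for the replicate number, a fit of just the 2 groups in question, the thresholds of the study's methods and leaving out each mouse. Counts at the study's thresholds were taken from the edgeR values. Same-numbered mice of different groups did not deviate together (correlations from -0.32 to 0.11). No 2 mice of a group agreed within sampling noise (chi-square per degree of freedom at least 2.54). The fit was checked on simulated counts.

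The 10 genes, the pathway and marker lists and the promoter letters were chosen with earlier results of these data known, and the variant TGAGNNNGC was added after the first search. All 10 genes are named, with the 3 list genes of smallest p for Vehicle versus Sham in each list and the 5 genes nearest to Hmox1. Others were named after their values were seen. Promoter sequences are from RefSeq GRCm38.p6. Other assays of the study were not analysed here.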

Additional observations from a re-analysis of the deposited data

Results flagged for a closer look

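In 1 of the 30 combinations of gene and group, 1 mouse lay far from the other 3 (Dixon's ratio above the 95% critical value of 0.829 for 4 values), where chance alone would give about 1.5. It was Gclm in LJP mice, where mouse 3 had 38.8 CPM and the other 3 mice had 32.3 to 33.0 CPM, a ratio of 0.892. LJP mouse 3 also had the highest macrophage sum of its group, and the part of this in the Gclm level was not tested.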

How the results depend on the processing

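For Vehicle versus Sham, each of the 10 genes kept its direction and its call under all alternatives. At the study's thresholds 3807 genes and 39 pathway genes were called, against 7014 and 64. Leaving out 1 mouse gave 5285 to 8200 genes, 54 to 70 pathway genes and 9 of the 10 NRF2 genes. For LJP versus Vehicle, where edgeR called 4 genes and none of the 10, the 10 genes gave 7 lower at the study's thresholds, 6 without a filter and 7 with DESeq2. All genes gave 1223, 593 and 2313 in the same order, and 2 with a fit of only these groups, while pathway genes gave 21, 11 and 35. Leaving out 1 mouse gave 0 to 8 of the 10 genes, 3 to 3857 genes and 0 to 45 pathway genes. For LJP versus Sham, where 834 genes, 7 pathway genes and none of the 10 were called, the 10 genes gave 1 higher at the study's thresholds, 1 with DESeq2 and 3 with a fit of only these groups. All genes gave 1458 and 4043 in the last 2 settings, and pathway genes 13 and 35. Leaving out 1 mouse gave 0 to 2 of the 10 genes (Hmox1 and Nfe2l2 without Vehicle mouse 2, Hmox1 without Vehicle mouse 3), 393 to 2357 genes and 4 to 20 pathway genes. In that comparison the small fold changes of Nqo1 (-0.012 without LJP mouse 2, up to 0.228 without Sham mouse 2) and Gclm (0.032 with library size only, 0.0040 without LJP mouse 4, from -0.087 without LJP mouse 3 to 0.011 without Sham mouse 2) turned in sign, and no direction is drawn from them. With the replicate number as a block, 6110, 2 and 464 genes were called in the 3 comparisons, with 9, 0 and 0 of the 10 genes and 59, 0 and 4 pathway genes. The numbers do not pair the mice, since 1 of 12 pairs correlated above 0.1. The causes of these changes were not tested. With counts of 4 to 16 per Sham mouse, depth limits the level of Osgin1 most.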
